A study of Mus musculus with 4 samples.

Results

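The insulin-like growth factor (IGF) axis was examined in 4 mouse mammary tumor cell lines by RNA sequencing. The axis was represented by 10 genes, taken by symbol from the 38713 genes of the deposited table. They were the ligand Igf1, the receptors Igf1r and Insr, the receptor substrates Irs1 and Irs2, and the binding proteins Igfbp2, Igfbp3, Igfbp4, Igfbp5 and Igfbp7. All 10 were found in the table, each on 1 row. The 2 JNK_WT lines (genotype p53-/-) arose in parous female C57BL/6 mice that carried Wap-Cre and floxed Trp53. The 2 JNK_KO lines (genotype p53-/- JNK-/-) came from mice that carried, in addition, floxed Mapk8 and Mapk9, the genes for JNK1 and JNK2. By genotype all 4 lines lacked p53, and the JNK genes were the designed difference. The Wap promoter drives Cre recombinase in milk-producing mammary epithelium and is induced by lactation, so the deletion was directed to luminal cells and not to the whole animal. Tumors were dispersed with collagenase and grown on collagen-coated plates for 2 passages and then on plastic in medium with serum. Each line is labelled as a tumor of its own and gave 1 library, so a line and its library cannot be told apart. The lines are called JNK_WT 1, JNK_WT 2, JNK_KO 1 and JNK_KO 3, after the numbers in the labels.

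IGF1 is a circulating and locally made hormone that binds the tyrosine kinase IGF1R, which is closely related to the insulin receptor INSR. Activated receptors phosphorylate the docking proteins IRS1 and IRS2, which recruit phosphoinositide 3-kinase and so switch on AKT and mTOR, a route to growth and survival. IGF binding proteins (IGFBPs) hold the hormone outside the cell, lengthen its life and restrain or present it to the receptor. In the mammary gland the axis serves the growth of ducts, with IGF1 coming largely from the stroma, and IGFBP5 is known for its rise during involution after lactation.

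Values were FPKM, that is, sequenced fragments per kilobase of transcript, scaled to the mapped fragments of the library, which allows levels to be compared between genes. The labels were first checked on the targeted genes. Mapk8 was at 23.9 and 19.1 FPKM in JNK_WT 1 and 2 and at 4.30 and 4.27 FPKM in JNK_KO 1 and 3, and Mapk9 was at 29.7 and 24.3 FPKM against 12.6 and 8.66 FPKM. Both genes were lower in each JNK_KO line, though not at 0 (limma adjusted p-values 0.191 and 0.429). Trp53 was at 1.55 to 5.72 FPKM in the 4 lines. A value for a whole gene does not show whether the floxed part is gone, so the deletions were not checked by exon. At the protein level, the study reported that immunoblots of JNK_KO tumor cells showed no JNK. The 5 markers of luminal epithelium (Krt8, Krt18, Krt19, Epcam and Cdh1) were all over 1 FPKM in every line. Their sums were 3059 and 2072 FPKM in JNK_WT 1 and 2 and 895 and 1744 FPKM in JNK_KO 1 and 3. Both JNK_KO sums were thus the lower ones, though Krt18, Krt19 and Cdh1 each overlapped between the groups. Of 6 leukocyte markers only Cd68 (2.65 to 20.0 FPKM) and Csf1r (0.312 to 1.82 FPKM) reached 1 FPKM in any line, while the pan-leukocyte gene Ptprc stayed at or below 0.0134 FPKM. None of the 5 endothelial and none of the 4 adipocyte markers reached 1 FPKM in any line. The value of a single read gave depths between 1 and 1.41 times that of the shallowest library.

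Members differed in level by more than 2 orders of magnitude, and the order held only in part. Averaged over the 4 lines, Igfbp7 was at 479 FPKM and Igfbp4 at 237 FPKM, above 98.8% and 97.2% of the 12998 genes tested. Igfbp3 followed at 21.0, Igf1r at 11.6, Insr at 7.57, Irs2 at 5.76, Irs1 at 4.67, Igfbp5 at 2.82, Igfbp2 at 2.48 and Igf1 at 1.83 FPKM. Neighbors in this order were separated in every line in 2 places. The lowest Igfbp4 value (99.4 FPKM) lay above the highest Igfbp3 value (65.7 FPKM), and the lowest Igf1r value (10.5 FPKM) lay above the highest Insr value (9.14 FPKM). All other neighbors overlapped in range.

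**Figure D1:**
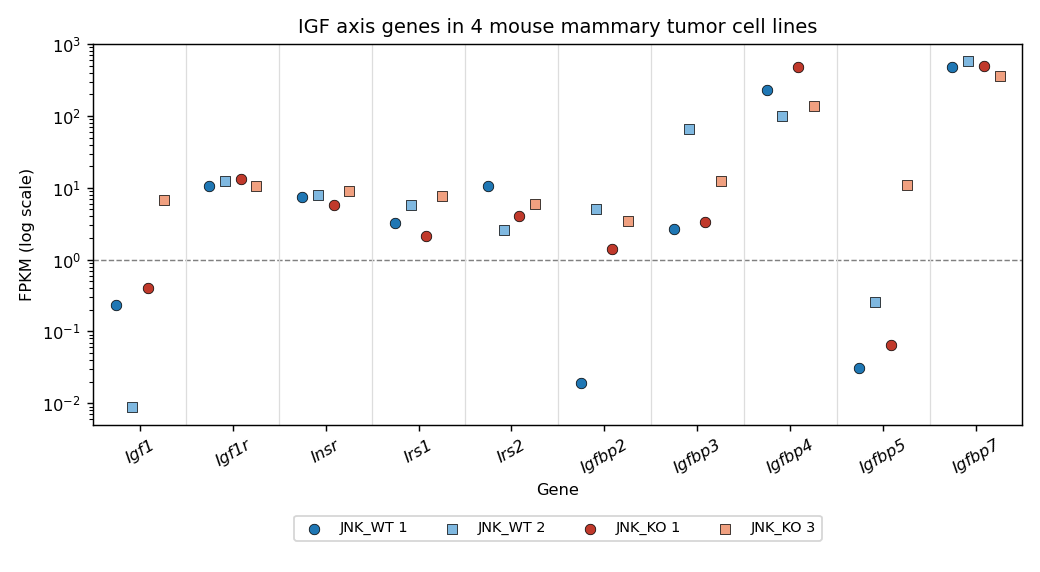
FPKM (log scale) of the 10 genes in each of the 4 lines, with 1 point per library and a dashed line at 1 FPKM. Igf1r, Insr and Igfbp7 lie in narrow bands, whereas Igf1, Igfbp2 and Igfbp5 range from under 0.1 FPKM to over 1 FPKM. The colors that mark the genotypes interleave for every gene but Igf1, where both JNK_KO points lie above both JNK_WT points.

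Promoter sequences were set beside these ranges. RefSeq windows of 300 bases (250 before to 50 after the start of transcription, GRCm38.p6) were found for 9 of the 10 genes, all but Insr, with 2 for Igfbp2. The windows of Igf1, Igfbp5 and Igf1r are shown because these genes had the widest, the next widest and the narrowest range over the 4 lines, at 761-fold, 352-fold and 1.26-fold in FPKM. Capitals mark CG dinucleotides, and each window is printed from 5′ to 3′ on the strand of its gene. They lie at chr10:87860861-87861160 (plus strand), chr1:72874816-72875115 (minus strand) and chr7:67952007-67952306 (plus strand). The windows follow RefSeq starts, which can differ from the gene bounds given below. The Igf1 window lies inside the bounds of the annotated gene. The Igf1r window ends before the annotated gene begins, at 67952827, and so does not span that start. The Irs2 window also lies outside its annotated gene.
Igf1: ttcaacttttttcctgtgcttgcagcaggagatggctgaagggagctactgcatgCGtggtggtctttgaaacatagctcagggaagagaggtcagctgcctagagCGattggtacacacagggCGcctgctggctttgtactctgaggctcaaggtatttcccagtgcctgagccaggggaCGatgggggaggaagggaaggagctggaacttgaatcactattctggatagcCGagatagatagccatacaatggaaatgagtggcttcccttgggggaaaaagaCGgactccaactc
Igfbp5: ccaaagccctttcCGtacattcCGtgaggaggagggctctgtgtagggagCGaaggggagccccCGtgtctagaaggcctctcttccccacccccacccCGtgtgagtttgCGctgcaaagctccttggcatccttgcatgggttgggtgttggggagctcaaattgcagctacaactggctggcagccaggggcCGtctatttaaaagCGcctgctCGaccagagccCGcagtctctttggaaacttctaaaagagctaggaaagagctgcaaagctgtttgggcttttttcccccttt
Igf1r: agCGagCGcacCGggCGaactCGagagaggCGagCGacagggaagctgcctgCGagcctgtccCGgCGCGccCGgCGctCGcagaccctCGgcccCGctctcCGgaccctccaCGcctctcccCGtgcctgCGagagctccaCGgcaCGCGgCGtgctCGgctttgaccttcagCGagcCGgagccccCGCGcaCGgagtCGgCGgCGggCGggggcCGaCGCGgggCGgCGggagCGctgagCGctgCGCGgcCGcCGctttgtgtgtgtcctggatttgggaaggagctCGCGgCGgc

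The Igf1 window held 6 CG dinucleotides and the Igfbp5 window 10, while the Igf1r window held 48, more than 98.8% of the 32851 windows in the table, whose median was 7. The 2 windows of Igfbp2, the gene with the third widest range (260-fold), held 18 and 14. The other members with a window (Irs1, Irs2, Igfbp3, Igfbp4 and Igfbp7) held 27 to 41 and ranged from 1.59-fold to 24.8-fold over the lines. A like contrast was seen among all genes with a window and a mean of at least 1 FPKM, taking the window richest in CG of each. The median was 9 CG in the 113 genes whose highest line was at least 100 times the lowest, and 23 in the 7895 genes whose highest line was under 5 times the lowest. These genes and windows were compared after the values were seen.

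Because JNK acts on AP1 factors, the windows were searched on both strands for TGANTCA. This pattern is wider than the usual AP1 site, which has C or G in the middle. It reads the same on either strand. It was found once in the Igf1 window, as TGAATCA starting 37 bases before the transcription start, and once in 1 of the 2 Igfbp2 windows, as TGAGTCA starting 39 bases before. The Igf1 match has A in the middle and so is not the usual AP1 site. Of all windows 7.81% held the wider pattern. The cAMP response motif TGACGTCA (in 1.79% of all windows) and the FOXO motif GTAAACA (in 3.65%) were in none of the 10 windows of the members, which says only that these letters are not there.

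Genes with at least 1 FPKM in at least 2 lines were tested on log2(FPKM + 1), a scale that understates changes of low genes, with limma and Benjamini-Hochberg adjustment over all 12998 genes. Calls required both an adjusted p-value under 0.05 and an absolute log2 difference over 0.75. Of the 10 genes, 8 passed the filter and 2, Igf1 and Igfbp5, did not, since each exceeded 1 FPKM in JNK_KO 3 alone. Of the 8 genes tested 0 were called, as were 0% of all genes, where the smallest adjusted p-value was 0.0515. None of the 8 (0) had an unadjusted limma p-value under 0.05, against 7.63% of all genes, and the smallest limma adjusted p-value among them was 0.950. In 0 of the 8 did the JNK_WT and JNK_KO lines form groups that do not overlap, whereas 35.0% of all genes tested had such groups. An absolute log2 difference over 0.75 was found for 2 of 8, Igfbp3 and Igfbp4, against 15.7% of all genes.

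Lines of the same genotype differed more, and so they did over all genes tested. There the median absolute log2 difference was 0.426 between the JNK_WT lines, 0.331 between the JNK_KO lines and 0.265 between genotypes. A difference between means of 2 lines varies less than one between single lines. The JNK_WT lines differed by over 0.75 in log2(FPKM + 1) for 4 of the 8 genes (Irs2, Igfbp2, Igfbp3 and Igfbp4), against 27.5% of all genes tested. The JNK_KO lines did so for 4 of 8 (Irs1, Igfbp2, Igfbp3 and Igfbp4), against 18.5% of all genes. In 6 of 8 genes (the exceptions were Insr and Igfbp7) both line differences exceeded the genotype difference, against 41.9% of all genes.

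**Figure D2:**
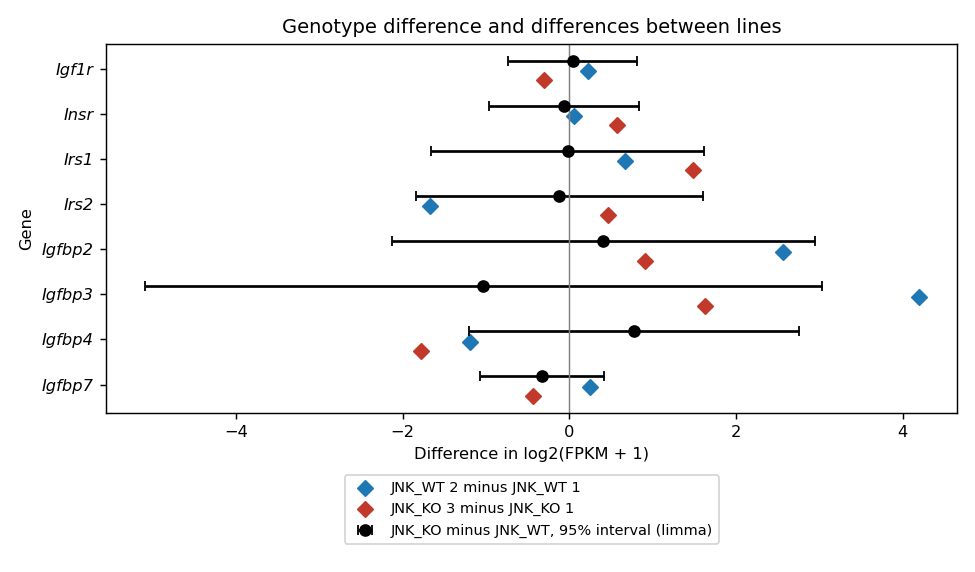
Differences in log2(FPKM + 1) for the 8 tested genes. Black circles and bars give JNK_KO minus JNK_WT with the 95% interval from limma, and diamonds give the difference between the 2 lines of each genotype. All 8 intervals include 0, and for Igfbp3 the JNK_WT lines differ by 4.19.

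**Figure D3:**
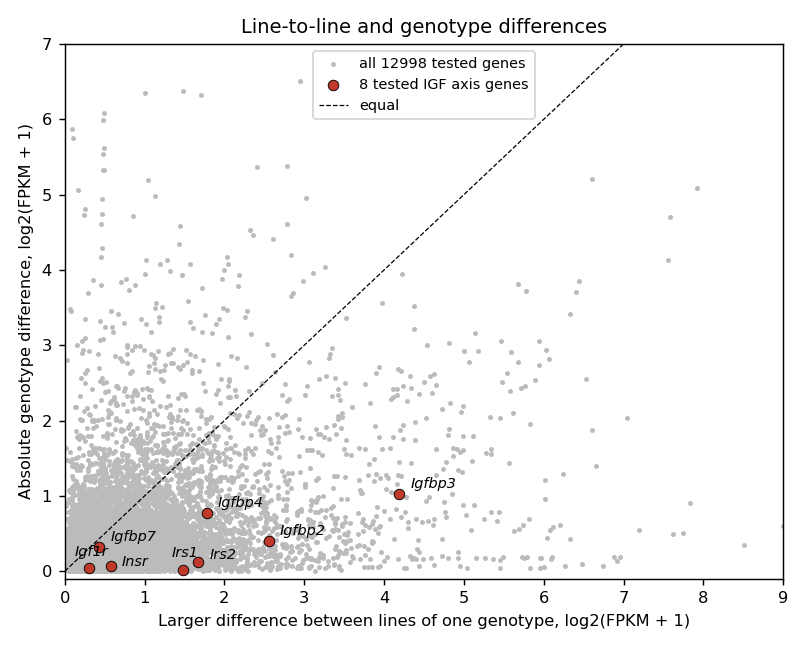
Absolute genotype difference (vertical) against the larger of the 2 line differences (horizontal), both in log2(FPKM + 1), for all 12998 tested genes (gray) and the 8 tested IGF axis genes (red). The red points all lie below the dashed line of equality, from Igf1r near the origin to Igfbp3 on the right. The vertical value is a difference of means and the horizontal value the larger of 2, so points tend to lie below the line by construction. The share of all genes below the line was not computed.

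Igf1 (GRCm38 chromosome 10, 87858265 to 87937042, plus strand) measured 0.236 and 0.00879 FPKM in JNK_WT 1 and 2, compared with 0.408 and 6.68 FPKM in JNK_KO 1 and 3. Both JNK_KO values lay above both JNK_WT values, but JNK_KO 3 stood apart from the other 3 lines, 16.4-fold above JNK_KO 1. The JNK_WT lines were themselves 26.9-fold apart. At its lowest, in JNK_WT 2, the value rested on at most about 4.43 reads by the exon length of the gene. In a fit without the filter, over 25135 genes, the log2 difference was 1.56 (95% interval -1.18 to 4.30), with a limma adjusted p-value of 0.866. Without JNK_KO 3 the difference was 0.33. Summed FPKM of 9 fibroblast markers moved in the same direction, at 12.0 and 1.78 in JNK_WT 1 and 2 and at 108 and 178 in JNK_KO 1 and 3. Dcn and Pdgfra made up most of the JNK_KO sums, at 79.7 and 162 FPKM and at 24.7 and 7.82 FPKM, while Col1a1 was under 1 FPKM in every line and Lum was listed at 0 in 3 lines and at 0.00840 FPKM in JNK_KO 3. Of the 9 markers, 1, 0, 3 and 6 reached 1 FPKM in JNK_WT 1, JNK_WT 2, JNK_KO 1 and JNK_KO 3. Col1a2 ran the other way, at 10.3 FPKM in JNK_WT 1, where it was most of the sum, 0.374 in JNK_WT 2, 0.698 in JNK_KO 1 and 2.56 in JNK_KO 3. The part of other cells in the Igf1 values was not tested, and in such bulk RNA more cells of a type and more RNA per cell cannot be told apart.

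The receptors had the narrowest ranges of the axis over the 4 lines, though Igfbp7 was close to Insr (1.59-fold and 1.58-fold). Igf1r (chromosome 7, 67952827 to 68233668, plus strand), the receptor for both IGF hormones, measured 10.5 and 12.4 FPKM in JNK_WT 1 and 2 and at 13.2 and 10.5 FPKM in JNK_KO 1 and 3. The groups overlapped, and the highest line exceeded the lowest by 1.26-fold, a range on the log2(FPKM + 1) scale smaller than that of all but 8.58% of the genes tested. The log2 difference was 0.04 (SE 0.29, 95% interval -0.74 to 0.81), with a limma adjusted p-value of 0.999. Insr (chromosome 8, 3122061 to 3279617, minus strand), the insulin receptor, was at 7.52 and 7.84 FPKM in JNK_WT lines and at 5.80 and 9.14 FPKM in JNK_KO lines. The JNK_WT values fell inside the JNK_KO range, and the log2 difference was -0.06 (SE 0.34, 95% interval -0.97 to 0.84), with a limma adjusted p-value of 0.999. These intervals leave room for changes of over 0.7 in either direction, so equal expression was not shown.

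Since IGF1R and INSR can pair into hybrid receptors, their ratio was computed within each line. Igf1r RNA exceeded Insr RNA in all 4 lines, by 1.40-fold and 1.58-fold in JNK_WT 1 and 2 and by 2.27-fold and 1.14-fold in JNK_KO 1 and 3. The JNK_KO lines held both the highest and the lowest ratio. On the log2 scale the ratio was 0.57 ± 0.12 in JNK_WT and 0.69 ± 0.70 in JNK_KO (SD, n = 2 each), with a two-sided exact permutation p of 1, where 2 lines against 2 can give no p below 0.33.

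The substrates varied by line and not together. Irs1 (chromosome 1, 82233101 to 82291416, minus strand) was at 3.19 and 5.68 FPKM in JNK_WT 1 and 2 and at 2.12 and 7.70 FPKM in JNK_KO 1 and 3. The JNK_KO lines thus held its lowest and its highest value, and the log2 difference was -0.02 (SE 0.61, limma adjusted p-value 0.999). Irs2 (chromosome 8, 10984681 to 11008458, minus strand), the closest relative of Irs1, was at 10.5 and 2.60 FPKM in JNK_WT lines and at 4.03 and 5.94 FPKM in JNK_KO lines. For Irs2 the JNK_WT lines held both extremes, 4.03-fold apart, more than 92.3% of all genes on the log2 scale. Its log2 difference was -0.12 (SE 0.65, limma adjusted p-value 0.999). The ratio of Irs1 to Irs2 was 0.304 and 2.18 in JNK_WT 1 and 2 and 0.527 and 1.29 in JNK_KO 1 and 3. Irs2 was thus the more abundant substrate in the lines numbered 1, and Irs1 in JNK_WT 2 and JNK_KO 3. The exact permutation p for the genotype difference in this ratio was 1.

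A caveat of counting touched Irs1. The annotated gene Gm9747 lies on the opposite strand over 2822 bases of the Irs1 locus, and the libraries were not stated to keep strand. Gm9747 was at 6.61 and 13.5 FPKM in JNK_WT 1 and 2 and at 5.63 and 19.1 FPKM in JNK_KO 1 and 3, in the same order as Irs1 and at 2.07 to 2.65 times its level. Reads from the 2 genes cannot be told apart in this overlap, so the Irs1 level and its ratio to Irs2 are uncertain. Opposite-strand genes also overlap Irs2 (9530052E02Rik, 0.398 to 1.24 FPKM) and Igfbp7 (Polr2b, 39.4 to 53.3 FPKM), over shorter stretches.

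The binding proteins spanned nearly the whole range of levels of the axis, with Igfbp7 at its top. Igfbp7 (chromosome 5, 77349240 to 77408041, minus strand), a distant relative of the family that binds IGFs weakly, was at 485 and 578 FPKM in JNK_WT 1 and 2 and at 491 and 363 FPKM in JNK_KO 1 and 3. The groups overlapped only narrowly, by JNK_KO 1 at 491 FPKM against JNK_WT 1 at 485 FPKM. The log2 difference was -0.33 (SE 0.28, 95% interval -1.07 to 0.42), with a limma adjusted p-value of 0.950. Igfbp4 (chromosome 11, 99041244 to 99054392, plus strand), an inhibitory binding protein that is cut by the protease PAPPA, measured 229 and 99.4 FPKM in JNK_WT lines and at 481 and 140 FPKM in JNK_KO lines. Both lines numbered 1 lay above JNK_WT 2 and JNK_KO 3. Its log2 difference was 0.78 (SE 0.75, 95% interval -1.21 to 2.76, limma adjusted p-value 0.973). Leaving out JNK_KO 1 turned it to -0.11, and leaving out JNK_WT 2 lowered it to 0.18.

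Igfbp3 (chromosome 11, 7206086 to 7213923, minus strand), the main carrier of IGFs in blood, was at 2.65 and 65.7 FPKM in JNK_WT 1 and 2 and at 3.34 and 12.4 FPKM in JNK_KO 1 and 3. Here JNK_WT 2 and JNK_KO 3 were the high lines. The 24.8-fold gap between the JNK_WT lines was larger on the log2 scale than that of 99.0% of the genes tested. The log2 difference of -1.03 (SE 1.53, limma adjusted p-value 0.996) rested on JNK_WT 2, since it was 1.06 without that line. Igfbp2 (chromosome 1, 72824503 to 72852474, plus strand), which also binds integrins, measured 0.0192 and 5.01 FPKM in JNK_WT lines and at 1.40 and 3.49 FPKM in JNK_KO lines. JNK_WT 2 and JNK_KO 3 were again the high lines, and the value in JNK_WT 1 rested on at most about 1.51 reads. Its log2 difference was 0.41 (SE 0.95, limma adjusted p-value 0.999). It was -0.87 without JNK_WT 1 and -0.05 without JNK_KO 3.

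JNK_WT 2 and JNK_KO 3 were also the lines with the most Krt14, a keratin of basal cells, at 443 and 313 FPKM against 7.34 in JNK_WT 1 and 26.7 in JNK_KO 1. Summed FPKM of 7 basal and myoepithelial markers was 15.1, 532, 30.1 and 349 in JNK_WT 1, JNK_WT 2, JNK_KO 1 and JNK_KO 3. Most of the sums in JNK_WT 2 and JNK_KO 3 was Krt14 itself, and the other markers did not all share its split. Krt5 was at 61.9 FPKM in JNK_WT 2 but at 0.205 FPKM in JNK_KO 3, and Acta2 was at 7.36 FPKM in JNK_WT 1, 3.19 in JNK_WT 2, 1.70 in JNK_KO 1 and 29.0 in JNK_KO 3. Of the 7 markers, 2, 5, 3 and 3 reached 1 FPKM in these lines, and Myh11 and Oxtr stayed below 1 FPKM in all. Of the 10 members, Igfbp2, Igfbp3, Igfbp5, Irs1 and Insr were higher, and Igfbp4 lower, in JNK_WT 2 and JNK_KO 3 than in the lines numbered 1. For Insr this rested on 7.84 FPKM in JNK_WT 2 against 7.52 in JNK_WT 1. The lines were grouped in this way after the values were seen. The share of all genes split in the same way was not computed, so nothing is read from this list of members. The part of basal character in these values was not tested.

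Igfbp5 (chromosome 1, 72857932 to 72874884, minus strand) was at 0.0310 and 0.260 FPKM in JNK_WT 1 and 2 and at 0.0643 and 10.9 FPKM in JNK_KO 1 and 3. Only JNK_KO 3 exceeded 1 FPKM, and JNK_KO 1 lay between the JNK_WT lines. The JNK_KO lines were 170-fold apart. Fitted without the filter, the log2 difference was 1.64 (95% interval -2.21 to 5.50, limma adjusted p-value 0.866). Leaving out JNK_KO 3 turned it to -0.10. Igfbp5 and Igfbp2 are neighbors on chromosome 1, on opposite strands with their ends 5457 bases apart and no annotated gene between. Both genes were lowest in JNK_WT 1, next in JNK_KO 1, and higher in JNK_WT 2 and JNK_KO 3, with Igfbp2 highest in JNK_WT 2 and Igfbp5 in JNK_KO 3. The ratio of Igfbp2 to Igfbp5 was 0.620 and 19.3 in JNK_WT 1 and 2 and 21.7 and 0.319 in JNK_KO 1 and 3, where the JNK_WT 1 values rested on at most about 1.51 and 7.92 reads. On chromosome 11, Igfbp1 lies 3539 bases from Igfbp3 and was listed at 0 in all 4 lines, beside Igfbp3 values of up to 65.7 FPKM.

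As a pool, the 5 binding protein genes summed to 717 and 748 FPKM in JNK_WT 1 and 2 and to 976 and 530 FPKM in JNK_KO 1 and 3. The JNK_WT sums lay between the JNK_KO sums (732 ± 22.2 and 753 ± 316 FPKM, SD, n = 2 each, exact permutation p = 1). Igfbp4 and Igfbp7 together made up 99.6%, 90.5%, 99.5% and 94.9% of the sum in JNK_WT 1, JNK_WT 2, JNK_KO 1 and JNK_KO 3. The rest differed by line. Igfbp3 gave 8.78% in JNK_WT 2, and Igfbp3 and Igfbp5 gave 2.35% and 2.06% in JNK_KO 3. In JNK_KO 1 Igfbp4 nearly equaled Igfbp7, at 49.2% and 50.3%.

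**Figure D4:**
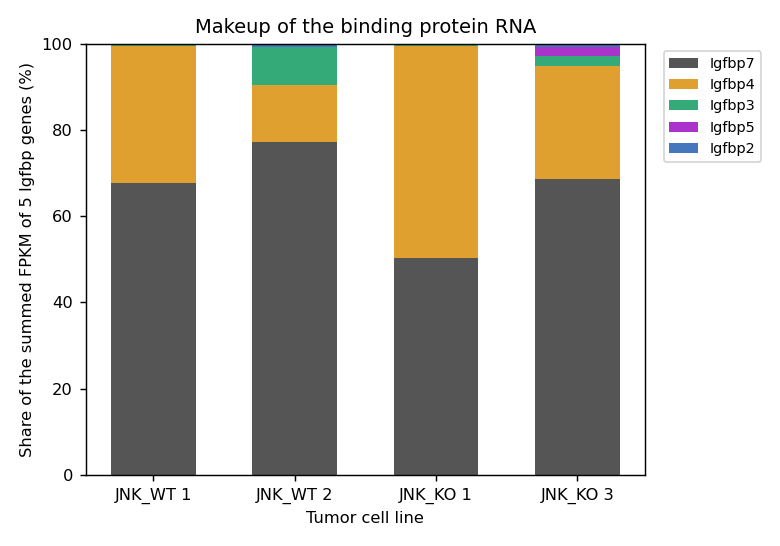
Share of the summed FPKM of Igfbp2, Igfbp3, Igfbp4, Igfbp5 and Igfbp7 held by each gene, in percent, with 1 bar per line. Igfbp7 and Igfbp4 fill over 90% of every bar, and the remainder is mainly Igfbp3 in JNK_WT 2 and Igfbp3 with Igfbp5 in JNK_KO 3.

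Other genes of the pathway were examined in 3 lists, and 0 of their genes were called. The first list held 14 other ligands, carriers, receptors and proteases, of which 5 were tested. An unadjusted limma p-value under 0.05 was found for 2 of these 5 (Stc1 higher and Igf2r lower in JNK_KO lines), an absolute log2 difference over 0.75 for 5, and groups that do not overlap for 3. The shares over all genes tested were 7.63%, 15.7% and 35.0%. Stc1 passed the filter through the JNK_KO lines alone and so had to differ. The median log2 difference of the 5 was 1.03, against 0.01 for all genes tested, but it was 0.053 with no filter and 0.079 with a minimum mean of 5 FPKM, so nothing is read from it. Stc1, which encodes stanniocalcin 1, an inhibitor of PAPPA, was listed at 0 and at 0.0448 FPKM in JNK_WT 1 and 2 and at 2.68 and 2.25 FPKM in JNK_KO 1 and 3. The groups did not overlap, and the log2 difference was 1.76 (SE 0.30, limma adjusted p-value 0.256). Its relative Stc2 was at 5.48 and 17.1 FPKM in JNK_WT lines and at 21.8 and 20.6 FPKM in JNK_KO lines, a log2 difference of 1.03 (limma adjusted p-value 0.829). PAPPA itself had little RNA, since Pappa was under 0.5 FPKM in every line.

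Igf2r, the receptor that clears IGF2 and sorts lysosomal enzymes, was at 19.7 and 31.6 FPKM in JNK_WT 1 and 2 and at 12.9 and 13.4 FPKM in JNK_KO 1 and 3. The groups did not overlap, and the log2 difference was -0.87 (SE 0.33, limma adjusted p-value 0.653). Igf2, the second IGF hormone and an imprinted gene, was at 9.11 and 0.0599 FPKM in JNK_WT lines and at 3.37 and 139 FPKM in JNK_KO lines. As with Igf1 and Igfbp5, its highest value was that of JNK_KO 3, but the groups overlapped (log2 difference 2.92, SE 2.01, limma adjusted p-value 0.905). Htra1, a secreted protease that can cut IGFBPs, was at 840 FPKM in JNK_WT 1 and at 93.8 to 189 FPKM in the other 3 lines (log2 difference -0.91, limma adjusted p-value 0.986). The insulin genes Ins1 and Ins2 were listed at 0 throughout.

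The second list held 41 adaptors and genes of the PI3K-AKT-mTOR branch, of which 38 were tested. The median log2 difference was -0.02, and 1 gene had an unadjusted limma p-value under 0.05, against 7.63% of all genes tested. An absolute log2 difference over 0.75 was found for 3 of the 38, against 15.7% of all genes. Groups did not overlap for 14 of the 38, 7 higher and 7 lower in JNK_KO lines, near the 35.0% of all genes tested. The gene with the small p-value was Socs1, a feedback inhibitor of cytokine and insulin receptors, at 1.60 and 1.74 FPKM in JNK_WT lines and at 5.24 and 3.64 FPKM in JNK_KO lines (log2 difference 1.01, SE 0.33, limma adjusted p-value 0.560). The other large differences were those of the adaptor Sh2b2 (1.70, limma adjusted p-value 0.753), the inhibitor Socs3 (1.19, limma adjusted p-value 0.862) and the kinase Akt1 (-0.72, limma adjusted p-value 0.774). Akt1 was at 196 and 119 FPKM in JNK_WT lines and at 80.1 and 107 FPKM in JNK_KO lines, so its groups did not overlap. Irs3 and Irs4 were under 0.2 FPKM in every line. Grb10, an imprinted adaptor that restrains both receptors, was at 1.69 FPKM in JNK_KO 3 and at 0.0278 FPKM or less in the other lines. JNK_KO 3 was also the line in which Igf1, Igf2, Igfbp5, Insr and Irs1, among other genes named here, were highest. The share of all genes highest in that line was not computed, so nothing is read from this. Grb10 did not pass the filter.

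The third list held 14 genes that FOXO factors, which insulin and IGF signals switch off, are known to regulate. Among the 13 tested, which include Irs2 and Insr, the median log2 difference was 0.08. An unadjusted limma p-value under 0.05 was found for 1 gene, against 7.63% of all genes tested. That gene was Pdk4, which holds back glucose oxidation, at 6.41 and 1.53 FPKM in JNK_WT 1 and 2 and at 11.9 and 61.2 FPKM in JNK_KO 1 and 3 (log2 difference 2.71, SE 0.96, limma adjusted p-value 0.625). The ubiquitin ligase gene Fbxo32 (-0.92), the cell cycle inhibitor Cdkn1b (-0.86) and Klf15 (0.65) had the next largest log2 differences, with limma adjusted p-values of 0.665, 0.827 and 0.870. The groups did not overlap for these 3 genes, of which Klf15, a transcription factor, was higher in JNK_KO lines and the others were lower. Klf15 reached 1 FPKM in the JNK_KO lines alone and so had to differ. Over the list, groups did not overlap for 5 of the 13, 2 higher and 3 lower, and an absolute difference over 0.75 was found for 3, beside 35.0% and 15.7% of all genes tested.

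**Figure D5:**
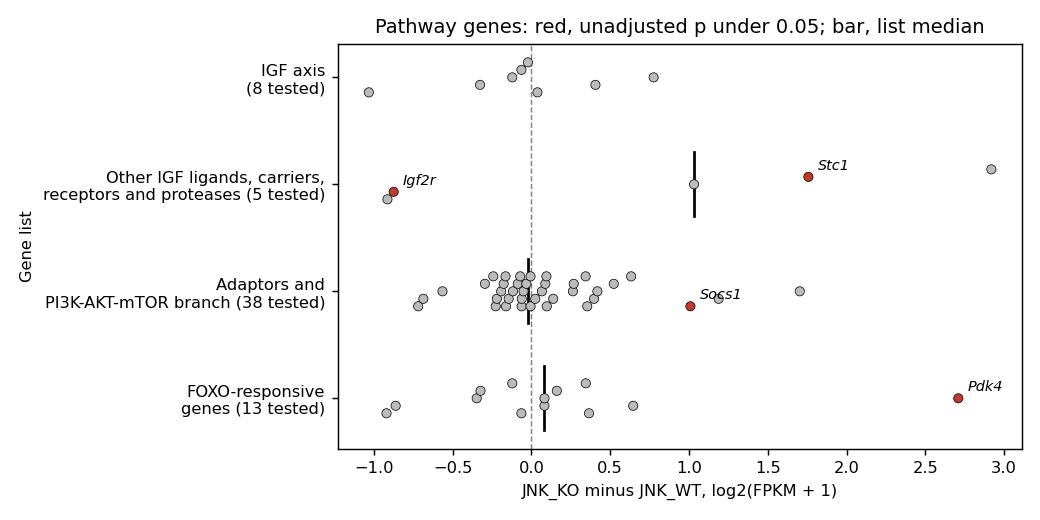
Log2 differences (JNK_KO minus JNK_WT, log2(FPKM + 1)) of single genes, 1 point per tested gene, for the IGF axis and the 3 lists, with a bar at each list's median. Red points had an unadjusted limma p-value under 0.05, and none of the genes shown was called after adjustment.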

How the data were processed

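RNA of 4 tumor cell lines, 2 JNK_WT and 2 JNK_KO, was sequenced as single-end reads, and the groups and replicate numbers were taken from the labels. The deposited values were FPKM. The authors trimmed reads with Trimmomatic, drew similar numbers of reads with seqtk, aligned them to mm10 with Bowtie2 and TopHat2 2.0.14 and estimated FPKM with Cufflinks 2.2.1 (versions from the submitters' processing notes). Whether the libraries kept strand was not stated. The gene annotation was not given in the sources used here. Values of overlapping genes can trade reads.

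Of 38741 rows, 27 with symbols turned into dates and 1 without values were left out. Positions and exon lengths came from GENCODE M21 (GRCm38, which mm10 denotes), promoters from RefSeq. Where a gene had a single transcript, low FPKM clustered at the value of 1 read, from which depth and the reads behind a member were estimated as upper values.

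The test was limma 3.58.1 in R 4.3.3 (eBayes with trend) on log2(FPKM + 1), for genes with at least 1 FPKM in at least 2 libraries, two-sided, with the thresholds of the study. It was tested on simulated data. A count model needs counts and was not run. A p-value here measures the spread between lines. The members and lists were chosen with earlier results of these data known, so no p-value was adjusted over a list. The genes named were the members, the targeted genes, markers, and from each list those with an unadjusted p-value under 0.05 and the 4 with the largest difference, and listed genes next to a member (Igfbp1). Ins1, Ins2, Pappa, Irs3, Irs4, Grb10 (none of them tested), Gm9747, 9530052E02Rik and Polr2b fall outside that rule and were chosen after their values were seen. Summaries used Python 3.11.15, pandas 2.3.3 and scipy 1.17.1, and figures matplotlib 3.10.9.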

Additional observations from a re-analysis of the deposited data

How the results depend on the processing

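No paired analysis was possible because replicate number 1 alone occurs in both genotypes, and no label ties it to a common animal or day. Across 12 other settings no tested member was called, and the smallest limma adjusted p-value of a member was 0.452. An adjusted p-value threshold of 0.1 or no difference threshold also gave 0 calls. Without a filter, where Igf1 and Igfbp5 enter, 4 members exceeded 0.75 and 1 had groups that do not overlap. A difference threshold of 1 left 1 member, a minimum mean of 5 FPKM left 2 members whose JNK_KO lines differed by over 0.75, and upper quartile scaling gave 1 member whose groups do not overlap. Quantile normalization turned Igf1r to -0.0011. Adding 0.1 in place of 1 before the logarithm raised Igfbp2 from 0.41 to 1.57 and left 3 members over 0.75. Without a filter the same change raised Igf1 from 1.56 to 3.28 and Igfbp5 from 1.64 to 2.63.

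Leaving out 1 line gave log2 differences from -0.12 to 0.19 for Igf1r, -0.35 to 0.22 for Insr, -0.76 to 0.72 for Irs1, -0.96 to 0.72 for Irs2, -0.87 to 1.69 for Igfbp2, -3.13 to 1.06 for Igfbp3, -0.11 to 1.66 for Igfbp4 and -0.54 to -0.11 for Igfbp7. Only Igfbp7 kept its direction among these 8 genes. For Igf1 and Igfbp5, fitted without a filter, the range was 0.33 to 2.78 and -0.10 to 3.39, an alternative chosen after seeing the data. Among the 8 tested genes, leaving out 1 line also gave 1 to 3 over 0.75 and 3 to 5 whose groups do not overlap. There 1 line against 2 separates more easily by construction. In such fits the lone line is assumed to vary like the other group.

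For the list of other ligands, carriers, receptors and proteases the median of 1.03 became 0.053 with no filter and 0.079 with a minimum mean of 5 FPKM, and 0.42 to 1.29 without 1 line. Its count of 2 genes with an unadjusted p-value under 0.05 was 1 with that minimum and 1 with no trend, and 1 to 3 without 1 line. For the adaptor list this count was 0 under quantile normalization and 0 to 3 without 1 line, with medians from -0.16 to 0.12. For the FOXO list it was 0 with no filter, 2 at that minimum, 2 under upper quartile scaling and 2 under quantile normalization, and 1 to 3 without 1 line, with medians from -0.29 to 0.23. Apart from changes that fewer genes or lines bring by construction, the cause was not tested.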
